A study of Homo sapiens with 14 samples.

Results

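RNA polymerase III (Pol III) is described here through 9 of its subunit genes, POLR3A, POLR3B, POLR3C, POLR3D, POLR3E, POLR3F, POLR3G, POLR3GL and POLR3K, which were chosen by symbol among the 60876 genes of the series. Their RNA was measured in 14 libraries of the human breast cancer line MDA-MB-231, with 2 replicates in each of 7 groups. The control cells are untreated by the labels and the study's methods but are described as given DMSO elsewhere in the study, so whether a vehicle effect enters is not known, and they are shared by all comparisons with a control, and the other groups received 5 µM CX-5461 or 5 µM RBI2 for 10, 30 or 120 min. CX-5461 blocks RNA polymerase I, and RBI2 is a small molecule that the study describes as an inhibitor of ribosome biogenesis. All groups are the same cell line, and nothing states that replicates came from separate cultures, so the p-values measure the spread between these samples, which may be technical. The names of the deposited files carry other time codes than the sample labels, and the times given here are those of the labels. The cell line's markers VIM, at 2780 to 3390 CPM (read counts scaled to library size), CD44, AXL and CAV1 were abundant in every library. ESR1, PGR and CDH1, and the blood and endothelial markers PTPRC, CD3E and PECAM1, held at most 7.1 reads in any library, whereas the epithelial marker EPCAM held 136.4 to 275.0 reads.

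Pol III makes transfer RNAs, the smallest ribosomal RNA and a set of short structural RNAs, and its output feeds the same ribosomes as the pre-rRNA of RNA polymerase I. Its core holds the catalytic pair encoded by POLR3A and POLR3B, to which a heterodimer (POLR3D and POLR3E), an initiation heterotrimer (POLR3C, POLR3F and either POLR3G or its paralogue POLR3GL) and the cleavage subunit POLR3K attach. Among its products are RN7SK, which holds the elongation factor P-TEFb in check, RN7SL1, the RNA of the signal recognition particle, and RMRP, the RNA of the ribonuclease MRP that cuts pre-rRNA.

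The libraries held 14112299 to 24849354 estimated reads, and 15426 genes, all 9 members among them, had enough reads to be tested. A gene passed with a Benjamini-Hochberg adjusted p under 0.05 in edgeR's quasi-likelihood test over all 14 libraries, with no limit on the fold change. One library stood apart, since mitochondrial genes held 20.6% of the reads of control replicate 2 and 8.14% to 11.3% of the reads of the others. In bulk RNA, fewer cells with a transcript and less of it per cell cannot be told apart.

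Of the 9 members, 4 passed against the control after 120 min of RBI2, 2 of them higher (POLR3A and POLR3D) and 2 lower (POLR3B and POLR3F), beside 18.0% of all genes tested, 8.90% higher and 9.07% lower. The catalytic pair therefore moved in opposite directions in the estimated reads. The median log2 fold change over the members was -0.01, against 0.01 over all genes. In this fit no member reached a log2 fold change of 1, a limit that 1.82% of all genes passed together with the adjusted p.

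POLR3A, the largest subunit, which carries most of the active site, lies at chr10:77953148-78029522 on the minus strand (GRCh38, as all positions here). Its level was 40.8 and 41.8 CPM in the control replicates, 35.1 and 37.7 CPM after 10 min of CX-5461, 42.7 and 43.6 CPM after 30 min and 45.9 and 57.1 CPM after 120 min. With RBI2 the level was 40.1 and 47.0 CPM at 10 min, 53.9 and 47.7 CPM at 30 min and 70.0 and 61.8 CPM at 120 min. Both libraries of RBI2 at 120 min lay above each of the other 12 libraries. Against the control POLR3A rose by 0.68 on the log2 scale (SE 0.12, edgeR quasi-likelihood test, Benjamini-Hochberg adjusted p = 0.0113). The adjusted p was 0.0782 without replicate 1 and 0.0510 without replicate 2 of that group.

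POLR3B, the second largest subunit and the partner of POLR3A at the active site, lies at chr12:106357748-106510198 on the plus strand. The control replicates were far apart, at 28.0 and 40.6 CPM, and the libraries of RBI2 at 120 min, at 21.7 and 24.1 CPM, were the lowest of all 14. CX-5461 at 120 min gave 34.2 and 38.5 CPM, and the remaining 8 libraries spanned 26.7 to 31.5 CPM. POLR3B fell by 0.58 on the log2 scale against the control (SE 0.16, edgeR adjusted p = 0.0320). Without control replicate 2, the library with the high mitochondrial share, the log2 fold change was -0.30 and the edgeR adjusted p was 0.131. The part of that library's make-up in the result was not tested.

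The stretches of 250 bases before the RefSeq start sites of POLR3A (chr10:78029516-78029765, minus strand, GRCh38.p14) and of POLR3B (chr12:106357498-106357747, plus strand, the upstream of 2 windows) are printed because these genes moved apart after RBI2. Capitals mark every match, on either strand, to the E-box CACGTG, the ETS motif CCGGAAG, the GC box GGGCGG, the CCAAT box and TATAAA.
POLR3A: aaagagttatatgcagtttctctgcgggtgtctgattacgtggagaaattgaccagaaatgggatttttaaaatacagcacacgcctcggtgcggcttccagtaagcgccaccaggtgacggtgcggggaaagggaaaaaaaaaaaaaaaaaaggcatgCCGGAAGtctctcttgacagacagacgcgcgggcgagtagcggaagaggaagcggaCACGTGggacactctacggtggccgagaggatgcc
POLR3B: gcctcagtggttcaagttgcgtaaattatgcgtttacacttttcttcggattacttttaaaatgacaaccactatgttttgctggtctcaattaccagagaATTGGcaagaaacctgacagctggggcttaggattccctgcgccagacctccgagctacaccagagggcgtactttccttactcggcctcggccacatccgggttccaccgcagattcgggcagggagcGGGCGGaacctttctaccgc
The POLR3A window holds the E-box at position -35 and the ETS motif at position -91 from the start site, and none of the other motifs. The POLR3B window holds a GC box at position -20 and a CCAAT box, read on the other strand, at position -149, and neither the E-box nor the ETS motif. Among all 34943 windows of the same length, 6.32% hold the E-box, 8.48% the ETS motif, 42.5% the GC box, 32.0% the CCAAT box and 10.8% TATAAA. The 7 members whose RefSeq windows were searched have 9 windows in all, and POLR3C is the other of these 7 with both an E-box and an ETS motif in a window. No window of POLR3D or POLR3G was searched. These matches describe the letters only, and binding was not measured.

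The heterodimer of POLR3D and POLR3E resembles the general factor TFIIF of RNA polymerase II and takes part in initiation and termination. POLR3D (chr8:22245133-22254601, plus strand) stood at 35.1 and 35.1 CPM in the control and at 42.9 and 45.4 CPM after 120 min of RBI2. CX-5461 at 120 min gave 37.8 and 42.9 CPM, so the compounds met at 120 min, while the RBI2 libraries at 120 min lay above the control without overlap. In estimated reads POLR3D rose by 0.33 on the log2 scale against the control (SE 0.09, edgeR adjusted p = 0.0298). With an offset for the average effective length of its transcripts the value was instead -0.21 (edgeR adjusted p = 0.401). Effective lengths are estimated in each library by the quantification and differ from the annotated lengths. That average effective length was 1912 and 1250 bases in control replicates 1 and 2, and 2317 and 2270 bases in RBI2 at 120 min. The part of control replicate 2 in this turn of sign was not tested. POLR3E (chr16:22297375-22335101, plus strand) was level between these groups, at 47.9 and 47.0 CPM in the control and 46.1 and 48.1 CPM in RBI2 at 120 min, a log2 difference of -0.01 (SE 0.08). The lowest POLR3E libraries were those of RBI2 at 10 min, at 38.7 and 40.3 CPM.

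In the heterotrimer, which helps to open DNA and to bind TFIIIB, POLR3F (chr20:18466878-18484648, plus strand) was 29.8 and 30.0 CPM in the control and 22.6 and 22.8 CPM after 120 min of RBI2. POLR3F fell by 0.39 on the log2 scale (SE 0.11, edgeR adjusted p = 0.0336). The level was also below both control libraries in every CX-5461 library, at 22.1 to 26.9 CPM, and no CX-5461 group passed for POLR3F, with edgeR adjusted p between 0.132 and 0.488. Without control replicate 2 the POLR3F adjusted p for RBI2 at 120 min was 0.0676 at a log2 fold change of -0.40.

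POLR3C (chr1:145824053-145844402, plus strand) and POLR3G (chr5:90471748-90514557, plus strand) did not pass after 120 min of RBI2, at log2 fold changes of -0.28 (SE 0.14) and -0.44 (SE 0.15) and edgeR adjusted p of 0.171 and 0.0622. Their control replicates were far apart, at 45.2 and 65.7 CPM for POLR3C and 44.2 and 63.7 CPM for POLR3G, with control replicate 2 the highest of all 14 libraries for both genes. RBI2 at 120 min gave 44.5 and 46.7 CPM for POLR3C and 38.5 and 40.9 CPM for POLR3G. The POLR3G values lay below both control libraries, and the POLR3C values overlapped with them.

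POLR3GL (chr1:145964690-145978848, plus strand), the paralogue of POLR3G, stayed between 16.2 and 19.9 CPM over the 14 libraries, the narrowest span of group means among the members, at 0.22 on the log2 scale. POLR3K (chr16:46407-53608, minus strand), which lets the polymerase cleave its own transcript, was 27.8 and 16.5 CPM in the control and 21.5 to 28.1 CPM in the 12 treated libraries. Control replicate 2 was the lowest library for POLR3K, in contrast to POLR3B, POLR3C and POLR3G, for which it was the highest. Neither POLR3GL (log2 0.16, SE 0.11) nor POLR3K (log2 0.06, SE 0.19) passed after 120 min of RBI2.

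**Figure D1:**
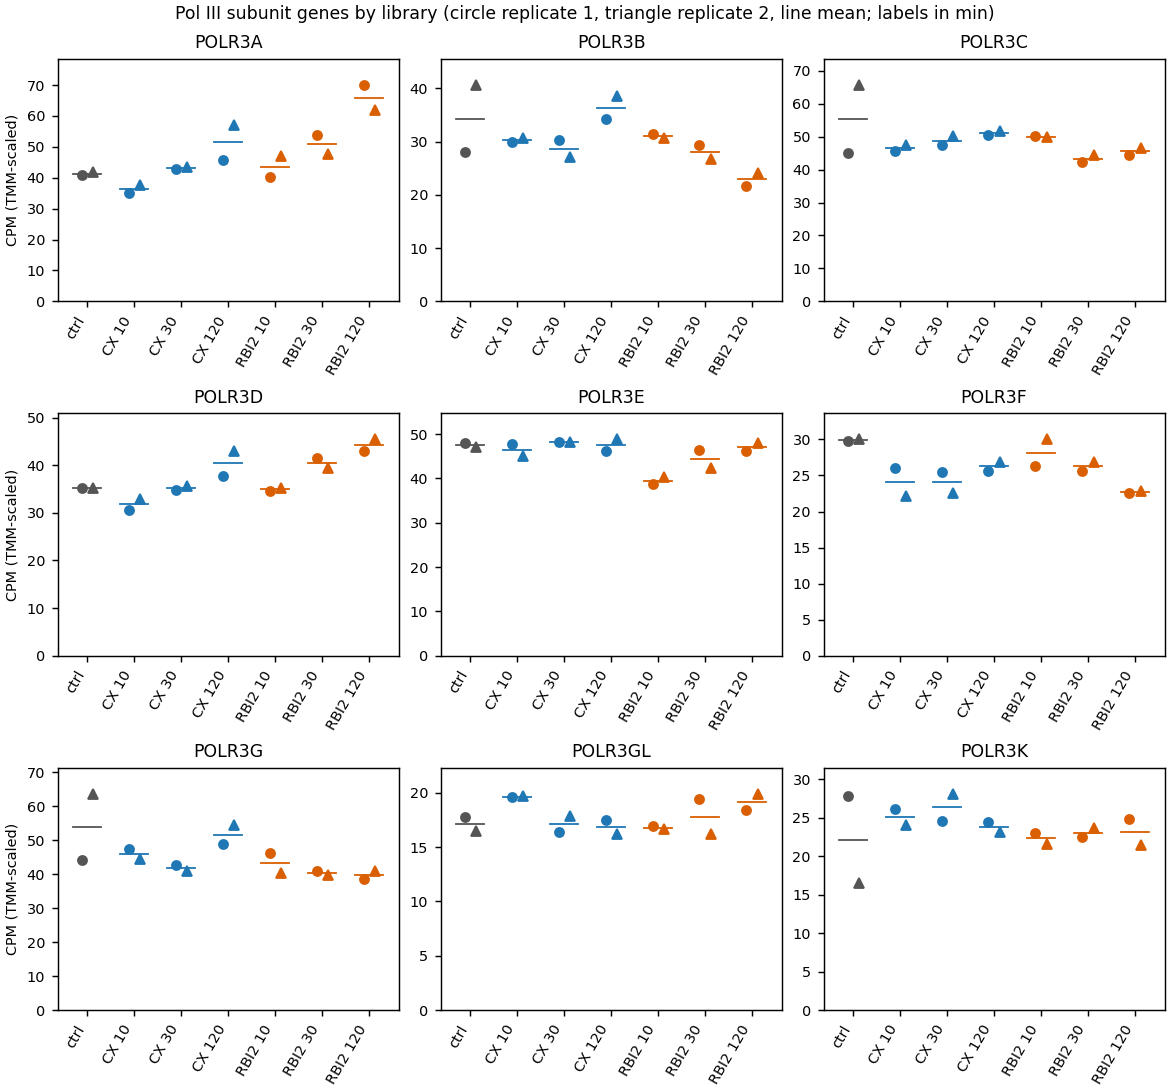
Level of each member (CPM, linear axes from 0) in every library, by group on the horizontal axis, with circles for replicate 1, triangles for replicate 2 and lines for means of 2. POLR3A in RBI2 at 120 min, at 70.0 and 61.8 CPM, lies above every other library, POLR3B, at 21.7 and 24.1 CPM, lies below every other library, and control replicate 2 stands apart from replicate 1 for POLR3B, POLR3C, POLR3G and POLR3K.

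The calls at 120 min rested on few libraries. The count of 4 became 0 without replicate 1 or 2 of RBI2 at 120 min, beside 0.448% and 0.988% of all genes, and 0 with only the 4 libraries of the comparison in the model, where 0% of all genes passed by edgeR. With the offset for transcript length POLR3A alone of the members passed, beside 1.40% of all genes, and POLR3B (log2 -0.40) and POLR3F (log2 -0.39) kept their direction at adjusted p of 0.124 and 0.134. The count became 1, POLR3A, without control replicate 2, beside 8.27% of all genes, and 7 without control replicate 1, beside 43.1%. It was also lower without replicate 2 of RBI2 at 10 min (2, beside 11.2%) or at 30 min (1, beside 9.80%).

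At 10 and 30 min of RBI2 no member passed against the control, beside 0.201% and 0.0713% of all genes. At an unadjusted p under 0.05, 1 member passed at 10 min (POLR3E) and 4 at 30 min (POLR3A, POLR3C, POLR3D and POLR3G), beside 12.9% and 25.8% of all genes. DESeq2 with adjusted p called no member, beside 1.14% and 6.37% of all genes. The log2 fold changes of POLR3A were 0.08, 0.30 and 0.68 at the 3 times, those of POLR3D -0.01, 0.20 and 0.33, and those of POLR3B -0.14, -0.28 and -0.58. Without control replicate 1, 5 members passed at 10 min and 4 at 30 min, beside 29.1% and 38.3% of all genes.

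With CX-5461 no member passed against the control at any time, beside 4.77% of all genes at 10 min, 0% at 30 min and 0.0778% at 120 min. At an unadjusted p under 0.05 the counts were 1 (POLR3F) at 10 min, 2 (POLR3F and POLR3G) at 30 min and 2 (POLR3A and POLR3D) at 120 min, beside 22.5%, 22.9% and 12.4% of all genes. DESeq2 with adjusted p called no member, beside 5.78%, 0.162% and 0.577% of all genes. POLR3A and POLR3D stood at log2 fold changes of 0.32 (SE 0.12) and 0.20 (SE 0.09) at 120 min, with edgeR adjusted p of 0.350 and 0.389. POLR3B at 0.09 (SE 0.15) stood on the other side of 0 from its value after RBI2. These comparisons share the control libraries with those of RBI2, and without control replicate 1 the counts were 4, 4 and 2, beside 37.7%, 39.3% and 21.5% of all genes.

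**Figure D2:**
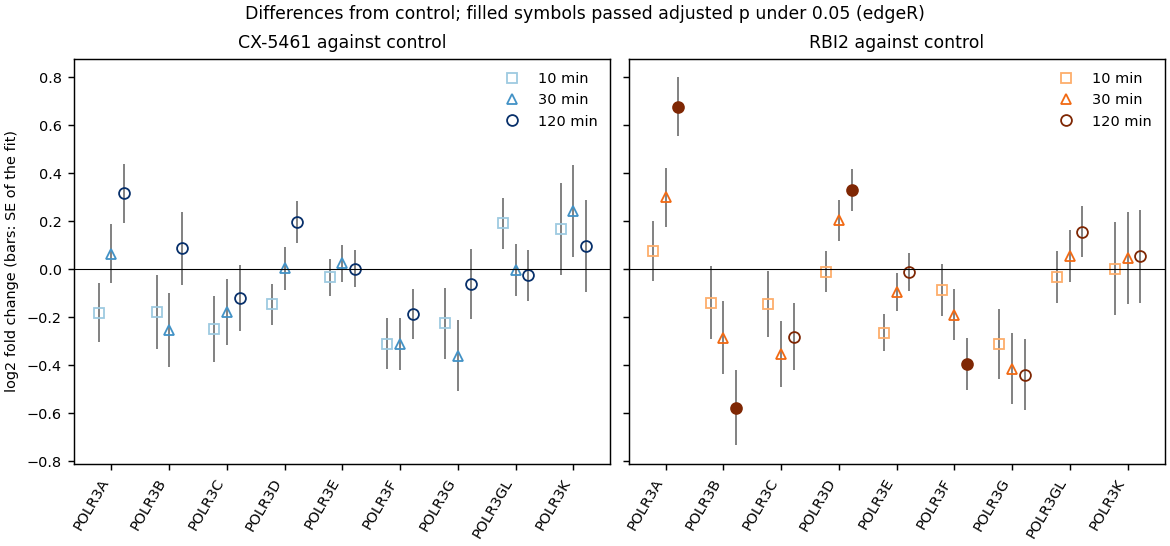
Log2 fold change against the control (vertical axis, bars are SE of the edgeR fit) of each member at 10, 30 and 120 min, with CX-5461 on the left and RBI2 on the right; filled symbols passed the adjusted p. Only POLR3A, POLR3B, POLR3D and POLR3F after 120 min of RBI2 are filled, and the POLR3D value turns to -0.21 with the offset for transcript length.

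The compounds were then compared directly, which leaves the control libraries out of the contrast. At 120 min POLR3B was lower with RBI2 than with CX-5461 by a log2 difference of -0.67 (SE 0.15, edgeR adjusted p = 0.0197), the 1 member that passed beside 16.1% of all genes. The libraries did not overlap, with 21.7 and 24.1 CPM against 34.2 and 38.5 CPM. This call was lost without CX-5461 replicate 2 (adjusted p = 0.126) and without either RBI2 library. POLR3A differed by 0.36 (SE 0.12, edgeR adjusted p = 0.0691) and also passed with DESeq2, with DESeq2's size factors, without the filter, with the length offset and with the scaling that leaves out mitochondrial genes. POLR3G differed by -0.38 (SE 0.15, edgeR adjusted p = 0.105). For the other 6 members the differences at 120 min lay between -0.21 (POLR3F) and 0.18 (POLR3GL). Leaving out either control library, neither of which enters this contrast, gave 3 members beside 27.8% or 27.9% of all genes, and leaving out replicate 1 of RBI2 at 10 min gave 2 beside 11.8%.

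At 10 and 30 min no member differed between the compounds, beside 3.06% and 0.0130% of all genes. At an unadjusted p under 0.05 the counts were 1 (POLR3E) and 1 (POLR3D), beside 14.2% and 7.79% of all genes. DESeq2 with adjusted p called no member, beside 3.57% and 0.305% of all genes. When the 3 times were pooled in a model of the 12 treated libraries that kept time as a term, POLR3A (log2 0.30, SE 0.07, edgeR adjusted p = 0.0219) and POLR3D (log2 0.17, SE 0.05, edgeR adjusted p = 0.0436) were higher with RBI2, beside 8.76% of all genes. The POLR3D call held in 3 of 20 alternatives and was lost in 16, and its difference was -0.03 with the offset for transcript length. The POLR3A call held in 14 of 20.

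The times within a compound were compared after the data had been seen. From 10 to 120 min of RBI2, POLR3A rose by 0.60 (SE 0.12, edgeR adjusted p = 0.0260) and POLR3D rose by 0.34 (SE 0.09, edgeR adjusted p = 0.0455) on the log2 scale, 2 members beside 6.44% of all genes. This POLR3D call was lost in 14 of 23 alternatives, among them no filter on low counts (adjusted p = 0.151), the length offset (log2 0.24, adjusted p = 0.526) and the replicate block (adjusted p = 0.0540), and the POLR3A call in 6 of 23. From 30 to 120 min of RBI2 no member passed, beside 0.0130% of all genes, with 1 (POLR3A) at an unadjusted p under 0.05 beside 10.3% and none with DESeq2 beside 1.03%. With CX-5461 no member passed from 10 to 120 min or from 30 to 120 min, beside 3.12% and 0.0130% of all genes. At an unadjusted p under 0.05 the counts were 2 (POLR3A and POLR3D) and 2 (POLR3B and POLR3D), beside 20.1% and 19.3%. DESeq2 called POLR3A from 10 to 120 min of CX-5461 (3.86% of all genes) and no member from 30 to 120 min (0.733%). From 10 to 120 min of CX-5461 edgeR gave a log2 difference of 0.50 (SE 0.12, adjusted p = 0.0577). For POLR3A the 120 min libraries were thus the highest of either compound, and the test passed within RBI2.

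Levels of different genes were set side by side per transcript length, in TPM, the length-normalized values as deposited. The mean level over the 14 libraries was 39.3 TPM for POLR3G (SD 4.87), 33.7 for POLR3E, 29.2 for POLR3C, 28.6 for POLR3K, 24.8 for POLR3D, 21.8 for POLR3F, 20.0 for POLR3GL, 11.0 for POLR3B and 10.8 for POLR3A (SD 4.16). Summed over all transcripts, the catalytic pair therefore had the lowest mean levels per length. From protein-coding transcripts alone POLR3D was the lowest, at 5.28 TPM, below POLR3A at 8.91 TPM and POLR3B at 10.9 TPM. On that scale POLR3E, at 11.9 TPM, stood below 23.9 for POLR3C, 28.3 for POLR3K, 21.7 for POLR3F and 19.9 for POLR3GL. The POLR3E value is uncertain, since the protein-coding share of its reads ran from 9.03% to 70.6% between libraries. In the sums over all transcripts POLR3GL was above POLR3B in 14 of 14 libraries, and POLR3G was above POLR3E in 12 and POLR3E above POLR3C in 13. Other neighbours changed order in more libraries. POLR3C was above POLR3K in 7, POLR3K above POLR3D in 11, POLR3D above POLR3F in 11 and POLR3F above POLR3GL in 9 of 14. POLR3B was above POLR3A in 10 of 14 libraries, and below it in both libraries of RBI2 at 30 min and of RBI2 at 120 min.

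POLR3A per length went from 8.04 and 5.87 TPM in the control to 18.6 and 18.9 TPM after 120 min of RBI2, and POLR3B from 10.6 and 9.34 TPM to 8.42 and 9.26 TPM. The ratio of POLR3A to POLR3B was 0.758 and 0.628 in the control, 0.927 and 0.890 after 120 min of CX-5461, 1.29 and 1.07 after 30 min of RBI2 and 2.21 and 2.04 after 120 min of RBI2. From protein-coding transcripts alone it was 0.748 and 0.556 in the control and 1.58 and 1.23 after 120 min of RBI2. On either scale the 2 libraries of RBI2 at 120 min had the highest ratios of all 14, and no test was run on the ratio.

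**Figure D3:**
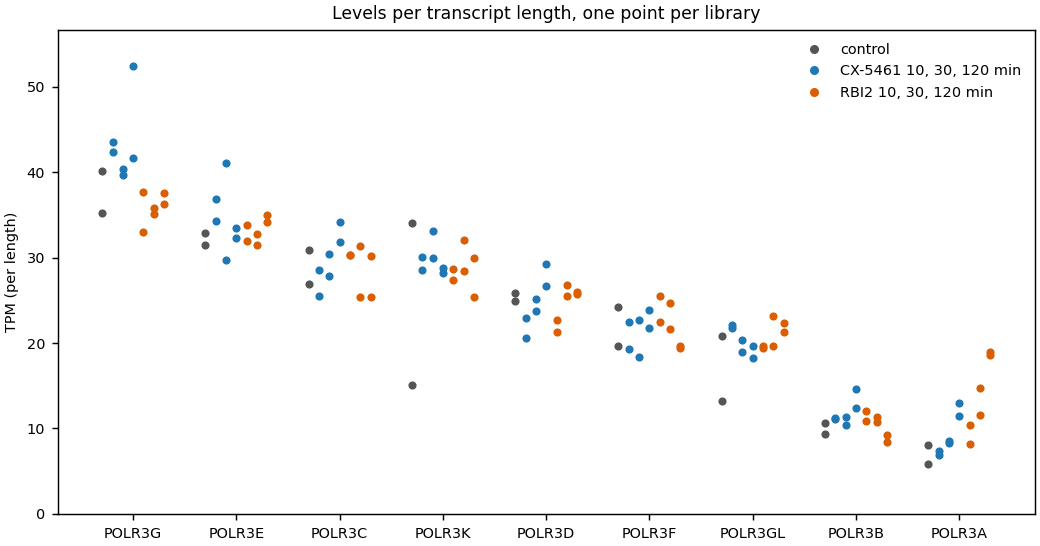
Level per transcript length (TPM, linear axis from 0) of each member, 1 point per library, with groups from left to right as control, CX-5461 and RBI2 at 10, 30 and 120 min. Summed over all transcripts, POLR3G has the highest mean, with 33.0 to 52.4 TPM, POLR3B and POLR3A have the lowest (POLR3D from protein-coding transcripts alone), and POLR3A climbs to 18.6 and 18.9 TPM in RBI2 at 120 min.

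The paralogues POLR3G and POLR3GL take the same place in the enzyme, with POLR3G known from stem and cancer cells and POLR3GL from most tissues. The ratio of POLR3G to POLR3GL per length was 1.93 and 2.67 in the control, where replicate 2 had the low POLR3GL level of 13.2 TPM. It was 1.94 to 2.88 over the 6 CX-5461 libraries and 1.51 to 1.94 over the 6 RBI2 libraries. POLR3G was thus the more abundant paralogue in every library, and the ranges for the 2 compounds met at 1.94. No test was run on this ratio.

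The transcripts behind the gene sums differed between members. In POLR3F, POLR3GL and POLR3K a single protein-coding transcript held at least 91.0%, 94.1% and 94.5% of the reads in every library. Nearly all POLR3B reads lay in POLR3B-201 and POLR3B-202, of 4183 and 4118 bases, with at most 0.289% in POLR3B-203, and the share of POLR3B-201 ran from 14.9% to 100%, so the split between these near copies is uncertain while their sum is not touched by it. POLR3E spread over 19 listed transcripts, with a protein-coding share of 9.03% to 70.6%, and its split is as uncertain. In POLR3D the retained-intron and nonsense-mediated decay transcripts held reads in every library. The protein-coding share of POLR3D was 54.0% and 45.6% in the control, 51.6% to 56.0% over the CX-5461 libraries, and 58.9% to 66.6% over the RBI2 libraries, which did not overlap with the others. Its protein-coding transcript POLR3D-201 is 5336 bases long and the other main transcripts 1202 and 841 bases. The share therefore enters the average effective length used by the offset. The other part is the effective length of each transcript, which is estimated anew in each library. Control replicate 2 had the shortest average effective length of all 14 libraries for POLR3D (1250 bases) and for POLR3F (1399 bases). In POLR3F protein-coding transcripts held at least 98.9% of the reads in every library.

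In POLR3A the long transcript POLR3A-201 of 6610 bases held 93.4% to 99.7% of the reads. A short transcript of 699 bases with no defined coding sequence, POLR3A-202, was given reads in 6 of the 14 libraries. These were 34.9 and 15.1 reads in CX-5461 at 120 min, 26.9 and 7.5 in RBI2 at 30 min, and 27.8 and 32.8 in RBI2 at 120 min. Both libraries of the other 4 groups held 0 reads of it, which does not show absence, since up to 3 reads in a library are allowed by a count of 0. Because it is short, these few reads weigh heavily per length, at 3.89 and 5.64 TPM in RBI2 at 120 min. POLR3A-201 alone went from 7.93 and 5.19 TPM in the control to 13.3 and 11.4 TPM, and these libraries did not overlap. With the length offset the log2 fold change of the gene was 1.22 (edgeR adjusted p = 0.0101), against 0.68 in reads.

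**Figure D4:**
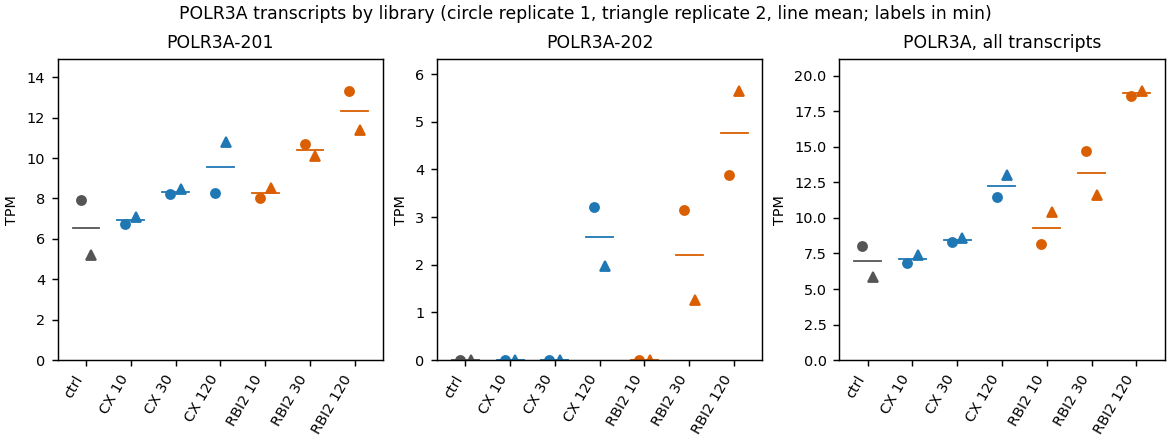
Level (TPM, linear axes from 0) of POLR3A-201, of POLR3A-202 and of all POLR3A transcripts in every library, with circles for replicate 1, triangles for replicate 2 and lines for means of 2. POLR3A-202 is at 0 in 8 libraries and at 3.89 and 5.64 TPM in RBI2 at 120 min, where POLR3A-201 is at 13.3 and 11.4 TPM.

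POLR3A, the member with the widest span of group means (0.85 on the log2 scale), was compared with all other tested genes over the 14 libraries. The 3 genes with the most similar log2 CPM were ARAP1 (Pearson r = 0.975), PDCD11 (r = 0.971) and NLRP1 (r = 0.967), the best of many and given as a description. PDCD11 encodes a nucleolar protein of rRNA processing, ARAP1 a GTPase-activating protein and NLRP1 an inflammasome sensor. ARAP1 was 49.3 and 51.8 CPM in the control and 92.5 and 81.0 CPM after 120 min of RBI2, and PDCD11 was 102.0 and 101.0 CPM and then 169.0 and 170.0 CPM. The points share groups and libraries and are not independent.

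Genes that work with the subunits were taken from 6 lists of 34 genes, all tested. After 120 min of RBI2, 4 were higher and 2 lower than the control, beside 8.90% and 9.07% of all genes. With only the 4 libraries of this comparison in the model 0% of all genes passed by edgeR, so none of the 34 did. With the offset for transcript length 1.40% of all genes passed. Whether the genes named from these lists kept their calls with this offset or with a library left out is not given here. The Pol III subunit CRCP did not pass, and none of the 7 subunits shared with other polymerases passed. Of the 7 genes of TFIIIA and TFIIIC, GTF3C1, the largest subunit of TFIIIC, rose (log2 0.61, SE 0.11, edgeR adjusted p = 0.00955) and GTF3C3 fell (log2 -0.40, SE 0.11, edgeR adjusted p = 0.0312).

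Of the 4 genes of TFIIIB, which places Pol III at the start site, BRF1 rose (log2 0.53, SE 0.12, edgeR adjusted p = 0.0187). Of the 7 genes of SNAPc and its activators, which serve the promoters of RN7SK and RMRP, SNAPC4 rose (log2 0.68, SE 0.11, edgeR adjusted p = 0.00782) and SNAPC1 fell (log2 -0.30, SE 0.08, edgeR adjusted p = 0.0357). Of 8 regulators and RNA chaperones NFIC rose (log2 0.38, SE 0.10, edgeR adjusted p = 0.0263), and MAF1, the repressor of Pol III, and SSB, the La protein, did not pass. None of the 34 genes passed at 10 or 30 min of RBI2 or in any CX-5461 group against the control, where between 0% and 4.77% of all genes passed.

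In the direct comparison at 120 min 3 of the 34 were higher with RBI2 (NFIC, POU2F1 and SNAPC4) and 2 lower (GTF3C3 and GTF3C4), beside 16.1% of all genes in either direction. At 10 min BRF2 was higher (log2 0.85, SE 0.16, edgeR adjusted p = 0.0147) and SNAPC4 lower (log2 -0.70, SE 0.11, edgeR adjusted p = 0.00561) with RBI2 than with CX-5461, beside 3.06% of all genes in either direction. SNAPC4 therefore differed between the compounds in opposite directions at 10 and 120 min. Over all times POU2F1, NFIC, MEPCE and CRCP were higher and BDP1 lower with RBI2, beside 8.76% of all genes.

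The products RN7SK (chr6:52995621-52995948, plus strand), RN7SL1 and RMRP (chr9:35657754-35658017, minus strand) are known as RNAs without a poly(A) tail, and the libraries were made from poly(A) RNA. How their reads entered the libraries, and whether tails on them changed, was not measured. The paper reports that rRNA, which also usually lacks a tail, was more abundant in the RBI2 libraries at every time than in control or CX-5461 libraries. With a PCR assay primed on poly(A) tails it found a rapid rise in tailed pre-rRNA after RBI2. Whether the same holds for the reads of these 3 products was not tested. All 3 passed and were higher after 120 min of RBI2, against the control (8.90% of all genes higher) and against CX-5461 (16.1% of all genes in either direction). RN7SK was 3.17 and 2.80 CPM in the control, 2.57 and 1.45 CPM after 120 min of CX-5461 and 8.85 and 21.7 CPM after 120 min of RBI2, with no overlap and with RBI2 replicate 2 far above replicate 1. It rose by 2.34 on the log2 scale against the control (SE 0.44, edgeR adjusted p = 0.0120) and was higher than with CX-5461 by 2.89 (SE 0.44, edgeR adjusted p = 0.00692). Without RBI2 replicate 2 these values were 1.56 and 2.10, with adjusted p of 0.0734 and 0.0677. The call against CX-5461 was also lost without CX-5461 replicate 2 (log2 2.60, adjusted p = 0.0575).

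RN7SL1 was 14.5 and 1.44 CPM in the control, where the low value belongs to control replicate 2, and 37.3 and 62.1 CPM after 120 min of RBI2. CX-5461 gave 6.90 to 16.9 CPM over its 6 libraries and RBI2 gave 16.8 to 62.1 CPM over its 6, which overlapped at 1 library each. RN7SL1 rose by 2.59 on the log2 scale at 120 min of RBI2 (SE 0.61, edgeR adjusted p = 0.0220), by 1.77 without control replicate 2 (adjusted p = 0.0150) and by 5.09 without control replicate 1. The RN7SL1 call was lost without replicate 1 or 2 of RBI2 at 120 min (adjusted p = 0.0802 and 0.108), with the length offset (0.0677) and with only the 4 libraries (0.301). Against CX-5461 at 120 min RN7SL1 was higher by 2.71 (SE 0.60, edgeR adjusted p = 0.0174), and this call was lost when any of the 4 libraries was left out, at adjusted p of 0.0678 to 0.129. Over all times it was higher with RBI2 than with CX-5461 by 1.49 (SE 0.30, edgeR adjusted p = 0.0125). RMRP rested on few reads, 7 and 0 in the control, 11 and 0 in CX-5461 at 120 min and 20 and 123 in RBI2 at 120 min. It rose by 4.35 on the log2 scale (SE 1.28, edgeR adjusted p = 0.0420), and by 2.28 without RBI2 replicate 2 (adjusted p = 0.319) or 3.49 without control replicate 2 (adjusted p = 0.144). Without control replicate 1, which leaves a control with 0 reads, the fitted value was 9.40 and is no bound. The RMRP call was lost in 12 of 22 alternatives.

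**Figure D5:**
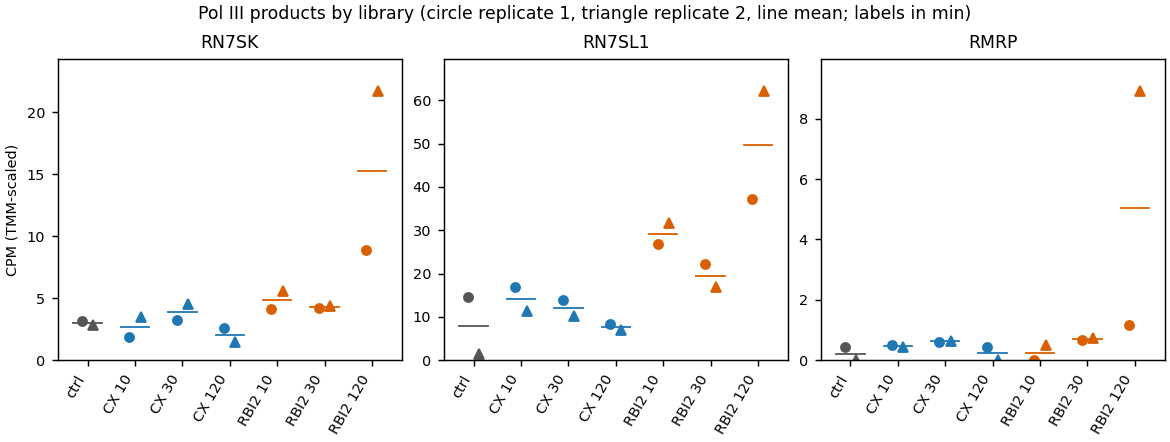
Level (CPM, linear axes from 0) of RN7SK, RN7SL1 and RMRP in every library, with circles for replicate 1, triangles for replicate 2 and lines for means of 2. RBI2 at 120 min is highest for each, at 8.85 and 21.7 CPM for RN7SK, with replicate 2 above replicate 1, and RN7SL1 is at 1.44 CPM in control replicate 2.

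RN7SL2 is a near copy of RN7SL1, and the split of reads between them is uncertain. RN7SL2 moved as RN7SL1 did, from 13.8 and 4.15 CPM in the control to 54.0 and 64.1 CPM after 120 min of RBI2 (log2 2.68, SE 0.42, edgeR adjusted p = 0.00749). Of 17 other Pol III products listed, 3 were tested, RN7SL2, RPPH1 and BCYRN1. RPPH1, the RNA of ribonuclease P, passed in the direct comparison at 120 min (log2 2.06, SE 0.54, edgeR adjusted p = 0.0284), and not against the control (log2 1.66, SE 0.54, edgeR adjusted p = 0.0561). It stood at 3.25 and 8.19 CPM after 120 min of RBI2, 1.67 and 0.985 CPM after 120 min of CX-5461 and 2.61 and 0.879 CPM in the control. RBI2 replicate 1 was thus near control replicate 1 and below both RBI2 libraries at 10 min (the lower at 3.34 CPM). BCYRN1 passed in no comparison. Transfer RNAs were not analysed here.

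The annotation puts a gene on the same strand over POLR3F (MIR3192, with 0 reads) and over POLR3GL (ENSG00000280778, with at most 19.2 reads), which leaves a small uncertainty for POLR3GL. Protein-coding genes on the opposite strand lie over POLR3C (RNF115), POLR3F (DZANK1) and POLR3G (MBLAC2), and over the product RN7SL1 (RPS29, with 1364 to 4571 reads per library), and the libraries were stranded. The 5 annotated pseudogenes of POLR3D, POLR3G and POLR3K held at most 2 reads in any library.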

How the data were processed

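RNA was measured in 14 libraries, grouped by the sample labels. The authors removed reads that aligned to human rDNA and quantified the rest on GRCh38 transcripts with Salmon 1.3.0, per the labels' processing notes and the methods. The deposited estimated counts are not normalized, and the deposited TPM values are the authors' length-normalized Salmon output. Of 228754 transcripts, 225662 were matched to GENCODE release 44 by identifier, and the reads of the others (1.03% to 1.13% of a library) were left out. Estimated counts were summed per gene and rounded, since the test needs whole counts.

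Counts of genes kept by filterByExpr (minimum count 10) were scaled with TMM and fitted with edgeR 4.0.16 in R 4.3.3, with all 14 libraries in 1 model of 7 groups so that they share the estimate of the spread. CPM values use the same scaling. The 12 treated libraries (15442 genes) gave a further contrast of the compounds, additive in time. P-values were adjusted by Benjamini-Hochberg over all genes of a comparison. Of 14 comparisons, 4 between times were added after seeing the data. The members and lists were chosen with earlier results of these data known. Named genes were all members, the 3 products, at most the 3 passing genes with the smallest adjusted p of each other list, and the 3 genes most like the member with the widest span; MAF1, SSB, CRCP, BDP1, BCYRN1 and markers were named beside that rule. Alternatives were DESeq2 1.42.0, other scalings, no filter, an offset for average effective transcript length and a fold limit. Further alternatives were the replicate number as a block, fewer libraries and each library left out. The model was tested on simulated data for RBI2 at 10 min against the control. There 69 of 100 genes changed by 1 on the log2 scale and 94 of 100 changed by 2 passed, with 6 false calls. Every library was simulated with the same spread, whereas control replicate 2 stood apart in the data, and smaller changes were not simulated. The floor of 3 reads used for a count of 0 covers counting error only, whereas the SEs of the fit include the spread between libraries. Some genes and sequences are not reported here.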

Additional observations from a re-analysis of the deposited data

Results flagged for a closer look

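The effects of RBI2 and CX-5461 at 120 min differed by the direct edgeR test in 1 of 9 members and in the 3 products, beside 16.1% of all genes. POLR3B differed by -0.67 on the log2 scale (21.7 and 24.1 CPM with RBI2, 34.2 and 38.5 CPM with CX-5461). The POLR3B call was lost without CX-5461 replicate 2 and without either RBI2 library. RN7SK differed by 2.89, RN7SL1 by 2.71 and RMRP by 4.28, each higher with RBI2. The RN7SL1 call was lost when any of its 4 libraries was left out (adjusted p = 0.0678 to 0.129), that of RN7SK without CX-5461 replicate 2 (0.0575) or RBI2 replicate 2 (0.0677), and that of RMRP in 12 of 22 alternatives. RMRP was 2.21 without RBI2 replicate 2, and the fitted 9.35 without CX-5461 replicate 1 stands against a group left with 0 reads and is no bound. No group had 4 or more libraries, so single libraries were not screened as outliers.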

How the results depend on the processing

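For RBI2 at 120 min against the control, where 4 members passed, the count was 3 to 5 with DESeq2, other scalings and no filter (11.0% to 21.2% of all genes), 1 with the offset for transcript length (1.40%) and 0 with only the 4 libraries of the comparison (0%) or with a log2 fold change of at least 1 (1.82%). With the offset POLR3D turned to -0.21 there and to -0.03 over all times. An unadjusted p gave 1 at 10 min and 4 at 30 min of RBI2, 1, 2 and 2 at the 3 times of CX-5461, and 1 and 1 in the direct comparisons at 10 and 30 min, where 0 had passed. In the direct comparison at 120 min, where 1 passed, the count was 2 with DESeq2, its size factors, the scaling without mitochondrial genes, no filter, the length offset or only the 4 libraries (6.55% to 22.8% of all genes), 3 with an unadjusted p (31.6%) and 0 with the fold limit (1.67%). Over all times, where 2 passed, it was 1 with DESeq2's size factors, the scaling without mitochondrial genes or no filter (7.40% to 8.54%), and 0 with the fold limit (0.965%). The cause was not tested.

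Between times of RBI2, 10 against 120 min (2 passed) gave 1 with the length offset (0.395% of all genes), 4 with only the 4 libraries (22.9%), 0 with the fold limit (0.694%) and 5 with an unadjusted p (24.0%), and 30 against 120 min (0 passed) gave 1 with only the 4 libraries (7.04%) and 1 with an unadjusted p (10.3%). Between times of CX-5461, 10 against 120 min (0 passed) gave 1 with DESeq2, no filter or the length offset (1.52% to 3.98%) and 2 with an unadjusted p (20.1%), and 30 against 120 min (0 passed) gave 2 with an unadjusted p (19.3%).

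Leaving out each library in turn gave 0 to 5, 0 to 4 and 0 to 7 members at 10, 30 and 120 min of RBI2 against the control, 0 to 4, 0 to 4 and 0 to 2 for CX-5461, and 0, 0 and 0 to 3 in the direct comparisons. The upper ends above 3 stood beside 29.1%, 38.3% and 43.1% of all genes for RBI2 and 37.7% and 39.3% for CX-5461. Over all times it gave 0 to 2, with 0 without replicate 1 of CX-5461 at 30 or 120 min or of RBI2 at 30 or 120 min, or without replicate 2 of RBI2 at 10 min (3.27% to 5.07% of all genes). Between times it gave 0 to 4 (10 to 120 min; 0 without any library of these groups or replicate 2 of RBI2 at 30 min, and 4 without control replicate 1 or 2, beside 17.9% and 18.3% of all genes) and 0 for RBI2 (at most 0.876% of all genes), and 0 to 2 and 0 to 1 for CX-5461 (10.2% or 10.7% and 8.74% of all genes at the upper ends, without a control). Every count above 0 against the control, where 0 had passed, came from leaving out control replicate 1, which leaves the high-mitochondrial control alone, assumed to vary like the other groups.

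Replicates of equal number showed little shared variation. The correlation of replicate differences between groups was -0.179 to 0.180 with a median of -0.00315, and 3 of 21 pairs of groups were above 0.1. Whether samples were paired in culture or preparation is not stated. With the replicate number as a block the count at 120 min of RBI2 was 4 (15.5% of all genes), that over all times 1 (6.18%) and that from 10 to 120 min of RBI2 1 (4.72%), and RMRP was lost in both comparisons at 120 min (adjusted p = 0.0611 and 0.0588).

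From protein-coding transcripts alone the mean control level was 18.1 TPM for POLR3C, 3.62 TPM for POLR3D and 11.4 TPM for POLR3E, against 28.9, 25.4 and 32.2 TPM from all transcripts. RMRP rested on few reads, at most 20 in 13 libraries, and DESeq2 gave it no adjusted p. Its 123 reads in replicate 2 of RBI2 at 120 min lay in the library with the lowest total, 14112299 reads.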
